A study of Mus musculus with 11 samples.

Results

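The genes described here build, anchor and turn over the contractile apparatus of the heart muscle cell: the thick and thin filaments of the sarcomere, titin and the Z-disc, the desmin network and its chaperones, the intercalated disc, and the ubiquitin ligases that mark myofibril proteins for degradation. They were chosen by name, as the rows of an expression table whose RefSeq accession maps to 41 listed mouse symbols. That rule uses no measured value, although earlier results of these data were known when the genes were chosen. Of the 41 symbols, 39 had a row among the 21878 rows of the table, and Myl2 and Myoz2, which matched none, were not analysed here. A total of 38 passed the filter on low values (a mean of at least 1 FPKM, fragments per kilobase of a gene model, relative to the total of the library); Tnni1, the slow skeletal and foetal troponin I, did not.

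The samples came from hearts of female wild-type mice. Polycystic ovary syndrome (PCOS) was modelled in 5 samples by giving anti-Müllerian hormone (AMH) before birth, and 6 control samples came from mice given phosphate-buffered saline as the vehicle before birth. The labels used here give no age, strain, litter or heart chamber, and do not say whether each sample is 1 mouse or a pool. Poly(A)-selected RNA of the tissue was sequenced, and the comparison asks which transcripts differ between the hearts of the 2 groups.

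As background, the sarcomere shortens when myosin heads of the thick filament pull on actin of the thin filament, and calcium permits this by binding troponin C, which moves tropomyosin. Titin spans from the Z-disc to the M-band and sets passive tension, and proteins at the Z-disc sense stretch and signal to the nucleus. The adult mouse ventricle uses the fast alpha myosin heavy chain (Myh6) and cardiac actin (Actc1), and re-expression of the slower beta chain (Myh7) and of skeletal actin (Acta1) is a well-known sign of haemodynamic load in rodent hearts.

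Library totals ran from 11867317 reads (control replicate 5) to 14347901 reads (PCOS replicate 3). The libraries held heart muscle transcripts, with atrial markers at unlike levels and most skeletal muscle markers near 0. The atrial light chains Myl7 and Myl4 reached at most 2.51 and 2.89 FPKM, atrial Sln at most 0.271 FPKM and Bmp10 at most 0.105 FPKM. Nppa, the atrial natriuretic peptide, which ventricles can also express, was at 364.1 to 1474 FPKM in controls and 412.0 to 635.0 FPKM in PCOS. Of the 11 skeletal muscle markers in the table, 8 never reached 1 FPKM and Myh4 was at 0 in all samples. The exception was Myl1, a fast skeletal light chain, at 24.2 to 62.8 FPKM in controls (62.8 in replicate 4) and 24.6 to 30.8 FPKM in PCOS. Control replicate 6 stood apart: its 8 liver markers summed to 1733 FPKM, of which albumin (Alb) made 851.7 FPKM, against at most 9.21 FPKM in the other controls and 2.66 FPKM in PCOS. Where this library moves a difference by over 1.5 times, the value without it is given beside the result or together further down. The summed level of 6 macrophage markers did not overlap between the groups (129.4 to 249.1 FPKM in controls, 276.7 to 387.0 FPKM in PCOS), while that of the erythroid markers did (530.3 to 1528 FPKM against 849.5 to 2229 FPKM). Of the macrophage markers taken singly, Cd68 (2.79 to 7.43 against 15.6 to 21.0 FPKM) and Lyz2 (60.9 to 121.3 against 132.8 to 211.9 FPKM) did not overlap. C1qa, C1qb, C1qc and Mrc1 each overlapped. All 5 tested erythroid markers had a log2 difference (PCOS minus control) above 0, with a median of 0.75 and adjusted p-values of 0.738 or higher (limma). The 6 macrophage markers were also all above 0, as were 50.6% of tested rows, with a median of 0.58. Of these 6, 1 was higher at an adjusted p under 0.05 (limma), as were 0.138% of tested rows. All PCOS samples lay above all controls in 0.45% of tested rows. In bulk tissue, fewer cells of a type and less RNA per cell cannot be told apart, and the part of other cells in the differences below was not tested.

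The actin and myosin pairs, on which some of the ratios rest, differ in the DNA around their annotated starts. The 4 windows below are shown because they belong to the more expressed and the less expressed gene of the actin pair and of the myosin pair. Each covers 250 bases before to 50 bases after the annotated start, on the gene's own strand, from RefSeq on GRCm38.p6, the assembly that mm10 carries. They are Actc1 (chr2:114052826-114053125, minus strand), Acta1 (chr8:123894726-123895025, minus strand), Myh6 (chr14:54966558-54966857, minus strand) and 1 of the 2 windows of Myh7 (chr14:54994577-54994876, minus strand). The Myh6 window lies inside the gene span given further down, 54941921 to 54968017, so its start is not the outermost one of that span. Capitals mark matches to TATAAA, the letters of a TATA box, to the CArG box bound by serum response factor, and to CATTCC, the core of the element bound by TEAD factors. TATAAA and CATTCC were sought on both strands, so that GGAATG is the same element read on the other strand, and the CArG box reads the same way on both.
Actc1: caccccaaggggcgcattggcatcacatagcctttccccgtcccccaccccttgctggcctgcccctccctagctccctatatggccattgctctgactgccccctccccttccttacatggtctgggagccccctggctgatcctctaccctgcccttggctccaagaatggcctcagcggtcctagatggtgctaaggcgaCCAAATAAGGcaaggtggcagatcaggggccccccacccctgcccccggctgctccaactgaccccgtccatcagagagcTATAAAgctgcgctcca
Acta1: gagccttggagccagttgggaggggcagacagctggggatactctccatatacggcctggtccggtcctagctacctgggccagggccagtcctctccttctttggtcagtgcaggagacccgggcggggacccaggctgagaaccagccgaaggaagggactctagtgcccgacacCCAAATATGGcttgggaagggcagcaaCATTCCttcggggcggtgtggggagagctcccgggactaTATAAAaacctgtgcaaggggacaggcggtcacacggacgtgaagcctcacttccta
Myh6: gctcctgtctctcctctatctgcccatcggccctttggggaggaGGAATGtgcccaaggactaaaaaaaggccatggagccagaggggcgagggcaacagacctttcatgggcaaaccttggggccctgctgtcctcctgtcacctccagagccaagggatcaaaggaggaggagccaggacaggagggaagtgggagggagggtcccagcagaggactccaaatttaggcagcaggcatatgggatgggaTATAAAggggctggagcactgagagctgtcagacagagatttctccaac
Myh7: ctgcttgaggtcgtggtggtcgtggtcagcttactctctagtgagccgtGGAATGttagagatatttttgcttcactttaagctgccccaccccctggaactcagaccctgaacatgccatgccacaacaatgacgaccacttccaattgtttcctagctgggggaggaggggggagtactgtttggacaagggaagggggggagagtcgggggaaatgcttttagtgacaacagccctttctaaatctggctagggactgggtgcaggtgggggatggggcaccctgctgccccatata

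Both actin windows held a TATAAA and a CArG box, and the Acta1 window also held CATTCC. The Myh6 window held TATAAA and CATTCC, and the Myh7 window held CATTCC alone. The TATAAA of Actc1 and that of Myh6 lie after the annotated start, and that of Acta1 just before it. Of the 31 listed genes with a window, 7 (22.6%) held a CArG box (Acta1, Actc1, Fhl2, Ldb3, Myl3, Myom1 and Nebl), against 1.81% of the windows of 27025 genes. CATTCC was in 14 (45.2%) against 16.6%, and TATAAA in 6 (19.4%) against 15.7%. These are matches of letters in a window, without any measurement of binding.

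No gene of the list differed between PCOS and control hearts once the p-values were adjusted over all tested rows. With limma on log2(FPKM + 1) in 10891 rows and an adjusted p under 0.05 as the threshold, 0 of 38 were called higher, where 0.138% of all rows were, and 0 of 38 were called lower, where 0.0% were. At an unadjusted p under 0.05 the list held 4 of 38 genes (10.5%), against 6.68% of all rows. Of these, 3 were higher in PCOS, Tpm1, Tnni3 and Tnnc1, against 3.51% of rows, and Pdlim5 was lower, against 3.17% of rows. The difference was above 0 in 13 of 38 (34.2%), against 50.6% of all rows. The median difference was -0.05 on the log2 scale for the list and 0.00 for all rows. This lower share depended on 2 control libraries. Without controls 2 and 5 the difference was above 0 in 19 of 38, against 5450 of 10908 rows, and the list median was -0.01. No tested gene of the list had all PCOS samples above all controls, as 0.45% of rows did, or all below, as 0.248% did.

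Leaving out control replicate 6 raised the number of genes under an unadjusted p of 0.05 from 4 to 15 of 38 (39.5%), while the share of all rows rose to 19.5%. Of the 15, 7 were higher in PCOS (9.69% of rows) and 8 lower (9.86% of rows). The adjusted threshold was again passed by 0 of 38, where 0.268% of rows were called higher and 0.0277% lower. The smallest adjusted p of the list was then 0.083, for Tnni3 (limma).

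Without that replicate the log2 differences of genes whose values follow moved by over 1.5 times in several roles. In the thick filament and M-band, that of Myh6 went from -0.01 to -0.07, of Mybpc3 from -0.02 to -0.06, of Myl3 from 0.04 to 0.07, of Mylk3 from -0.15 to -0.24, of Myom1 from -0.09 to -0.14 and of Myom2 from -0.05 to -0.14. In the thin filament, that of Nebl went from -0.09 to -0.16, of Lmod2 from -0.09 to -0.15, of Lmod3 from 0.04 to 0.001 and of Tmod1 from -0.01 to -0.05. Elsewhere, that of Cryab went from 0.13 to 0.19, of Smpx from 0.09 to 0.15, of Csrp3 from 0.07 to 0.13, of Actn2 from 0.05 to 0.03, of Ldb3 from -0.06 to -0.09, of Ankrd1 from -0.09 to -0.06, of Xirp1 from -0.04 to -0.12 and of Trim63 from -0.11 to -0.19. Each of these kept its direction, and Mylk3, Nebl, Cryab and Smpx came under an unadjusted p of 0.05, with adjusted p-values from 0.148 to 0.237 (limma). Myh7, Ttn, Cmya5 and Fbxo32 also moved by over 1.5 times and are given with their values. The median of the thick filament and M-band genes went from -0.035 to -0.061 and that of the thin filament genes from 0.064 to 0.041. That of the intermediate filament, chaperone and intercalated disc genes went from -0.048 to -0.116.

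**Figure D1:**
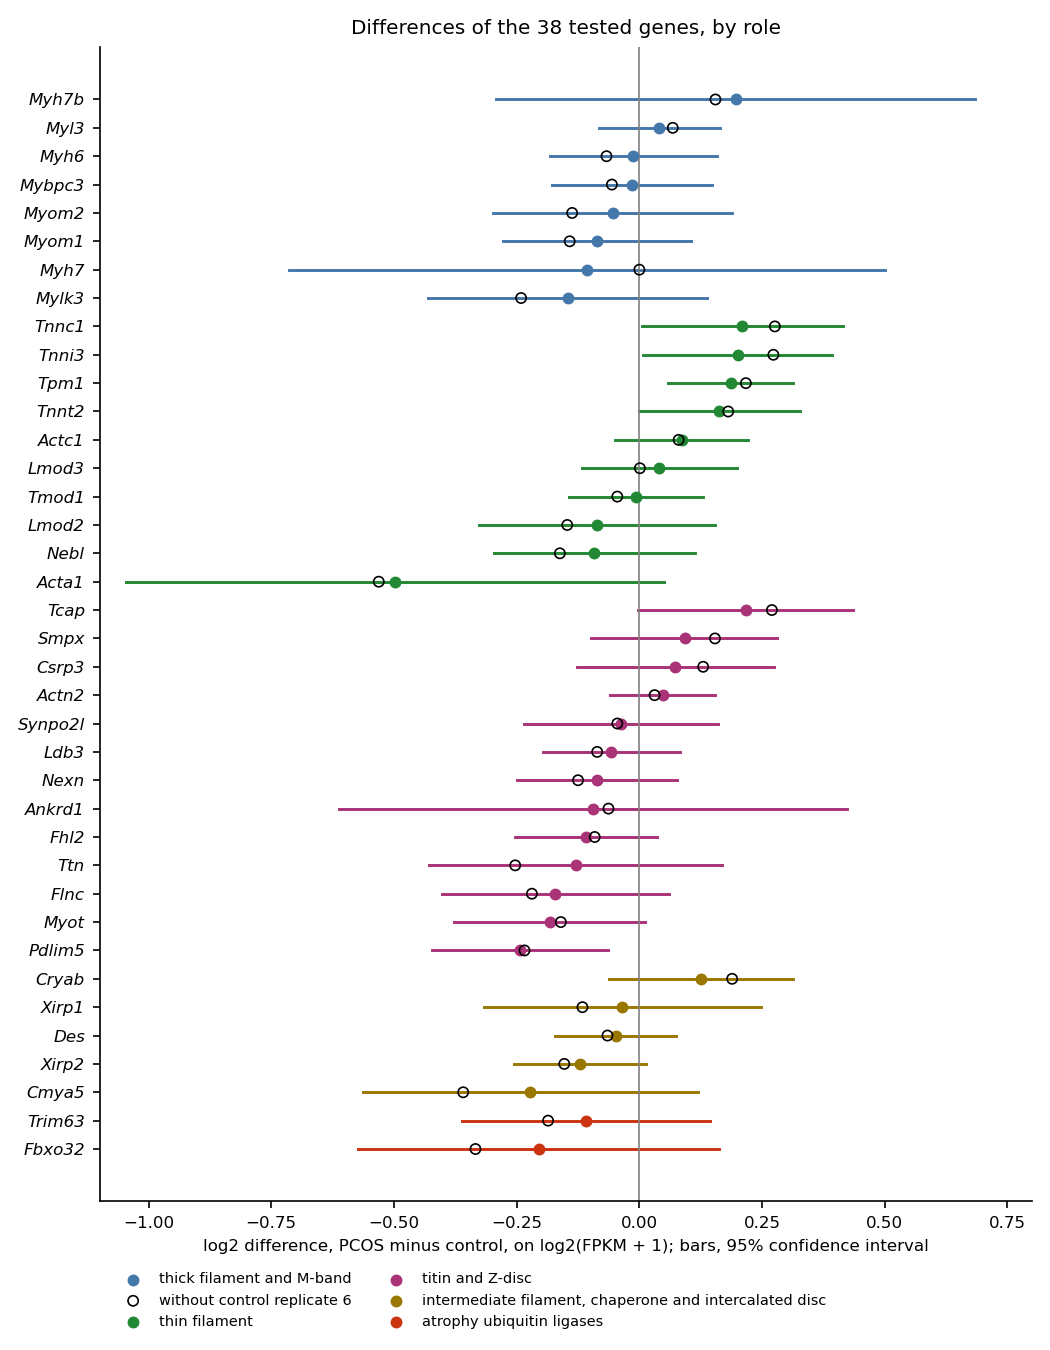
Log2 difference (PCOS minus control, horizontal axis) of the 38 tested genes, grouped by role; filled points are the fit of all 11 samples with its 95% confidence interval, and open circles the fit without control replicate 6. The thin filament regulators Tnnc1, Tnni3, Tpm1 and Tnnt2 lie between 0.16 and 0.21, and Acta1 lies lowest at -0.50 with an interval from -1.05 to 0.05.

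Tropomyosin and the adult troponins, which regulate the thin filament, had limma folds of PCOS over control between 1.12 and 1.16, without passing the adjusted test. Of the 10 tested thin filament genes, 6 had a difference above 0 and 4 below, with a median of 0.06, and 0 were called. Tpm1 (chromosome 9, 67022590 to 67049672), which encodes alpha-tropomyosin, had the smallest unadjusted p of the list. In controls it ran from 2484 FPKM over a median of 2709 to 3037 FPKM, and the PCOS samples stood at 3345, 3173, 2978, 3026 and 2998 FPKM. Of the 6 controls, 5 lay below every PCOS sample, and control replicate 6 lay among them. The means were 2731 ± 181.0 FPKM (SD, n = 6) and 3104 ± 155.0 FPKM (SD, n = 5), a log2 difference of 0.19 (SE 0.06, fold 1.14, limma adjusted p = 0.738). Without control replicate 6 the difference was 0.22 and the adjusted p 0.094.

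The 3 troponin subunits of the adult heart each had overlapping groups. Tnni3 (chromosome 7, 4518305 to 4522718), the inhibitory subunit, ran in controls from 5527 FPKM over a median of 5701 to 7740 FPKM, and in PCOS it stood at 7812, 7076, 6730, 6345 and 6703 FPKM. Again 5 of 6 controls lay below every PCOS sample, and the 7740 FPKM of control replicate 6 was next to the highest PCOS sample. The log2 difference was 0.20 (SE 0.09, fold 1.15, adjusted p = 0.738) with all samples and 0.27 without that replicate. Tnnc1, the calcium-binding subunit, ran in controls from 4642 FPKM over a median of 5294 to 6902 FPKM, and in PCOS it stood at 6887, 6337, 6719, 5765 and 6170 FPKM. Here 4 of 6 controls lay below all PCOS samples, and the highest value of all was a control, replicate 6. The log2 difference of Tnnc1 was 0.21 (SE 0.09, fold 1.16, adjusted p = 0.738), and 0.28 with an adjusted p of 0.109 without control replicate 6.

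Tnnt2, the subunit that ties the troponin complex to tropomyosin, ran in controls from 7395 FPKM over a median of 8368 to 9825 FPKM. In PCOS it stood at 10463, 9232, 9077, 9207 and 9000 FPKM, so that control replicate 3 was the only control above the lowest PCOS sample. Its log2 difference was 0.16 (SE 0.08, fold 1.12, adjusted p = 0.738). Tnni1, whose product fills the place of Tnni3 before birth, was at 0.265 ± 0.124 FPKM (SD, n = 6) in the control group and 0.147 ± 0.0759 FPKM (SD, n = 5) in the PCOS group, which are 1 to 9 reads a sample.

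Cardiac actin and skeletal actin showed unlike values. Actc1 (chromosome 2, 114047282 to 114052875) had the highest mean FPKM of the list, from 8871 FPKM over a median of 9586 to 10923 FPKM in controls and at 9940, 10316, 10904, 10047 and 10791 FPKM in PCOS. The groups overlapped, although 4 of 6 controls lay below all PCOS samples, and the log2 difference was 0.09 (SE 0.06, fold 1.062, adjusted p = 0.777). Acta1 (chromosome 8, 123891758 to 123894775) ran in controls from 197.4 FPKM over a median of 275.6 to 473.4 FPKM, and in PCOS it stood at 187.2, 151.7, 350.1, 174.1 and 277.3 FPKM. Controls 3 and 4 were the highest, 3 of 5 PCOS samples lay below every control, and the other 2 lay among the controls. The means of Acta1 were 322.9 ± 115.4 FPKM (SD, n = 6) and 228.1 ± 83.3 FPKM (SD, n = 5). Its log2 difference of -0.50 (SE 0.26, fold 0.708, adjusted p = 0.738) was the widest of the list, with a 95% interval from -1.05 to 0.05. The 2 actins share most of their coding sequence, so reads from one could have been counted to the other.

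Transcripts of the proteins that set and cap thin filament length overlapped between the groups. Lmod2 and Lmod3, leiomodins that lengthen the filament at its pointed end, had log2 differences of -0.09 (SE 0.11) and 0.04 (SE 0.07). Tmod1, the tropomodulin that caps this end, was at 146.2 ± 12.3 FPKM (SD, n = 6) in the control group and 145.1 ± 3.59 FPKM (SD, n = 5) in the PCOS group, a log2 difference of -0.01 (SE 0.06). Nebl, which encodes nebulette, a cardiac relative of nebulin at the Z-disc, had a log2 difference of -0.09 (SE 0.10). The adjusted p-values of these 4 genes were 0.827 or higher (limma).

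**Figure D2:**
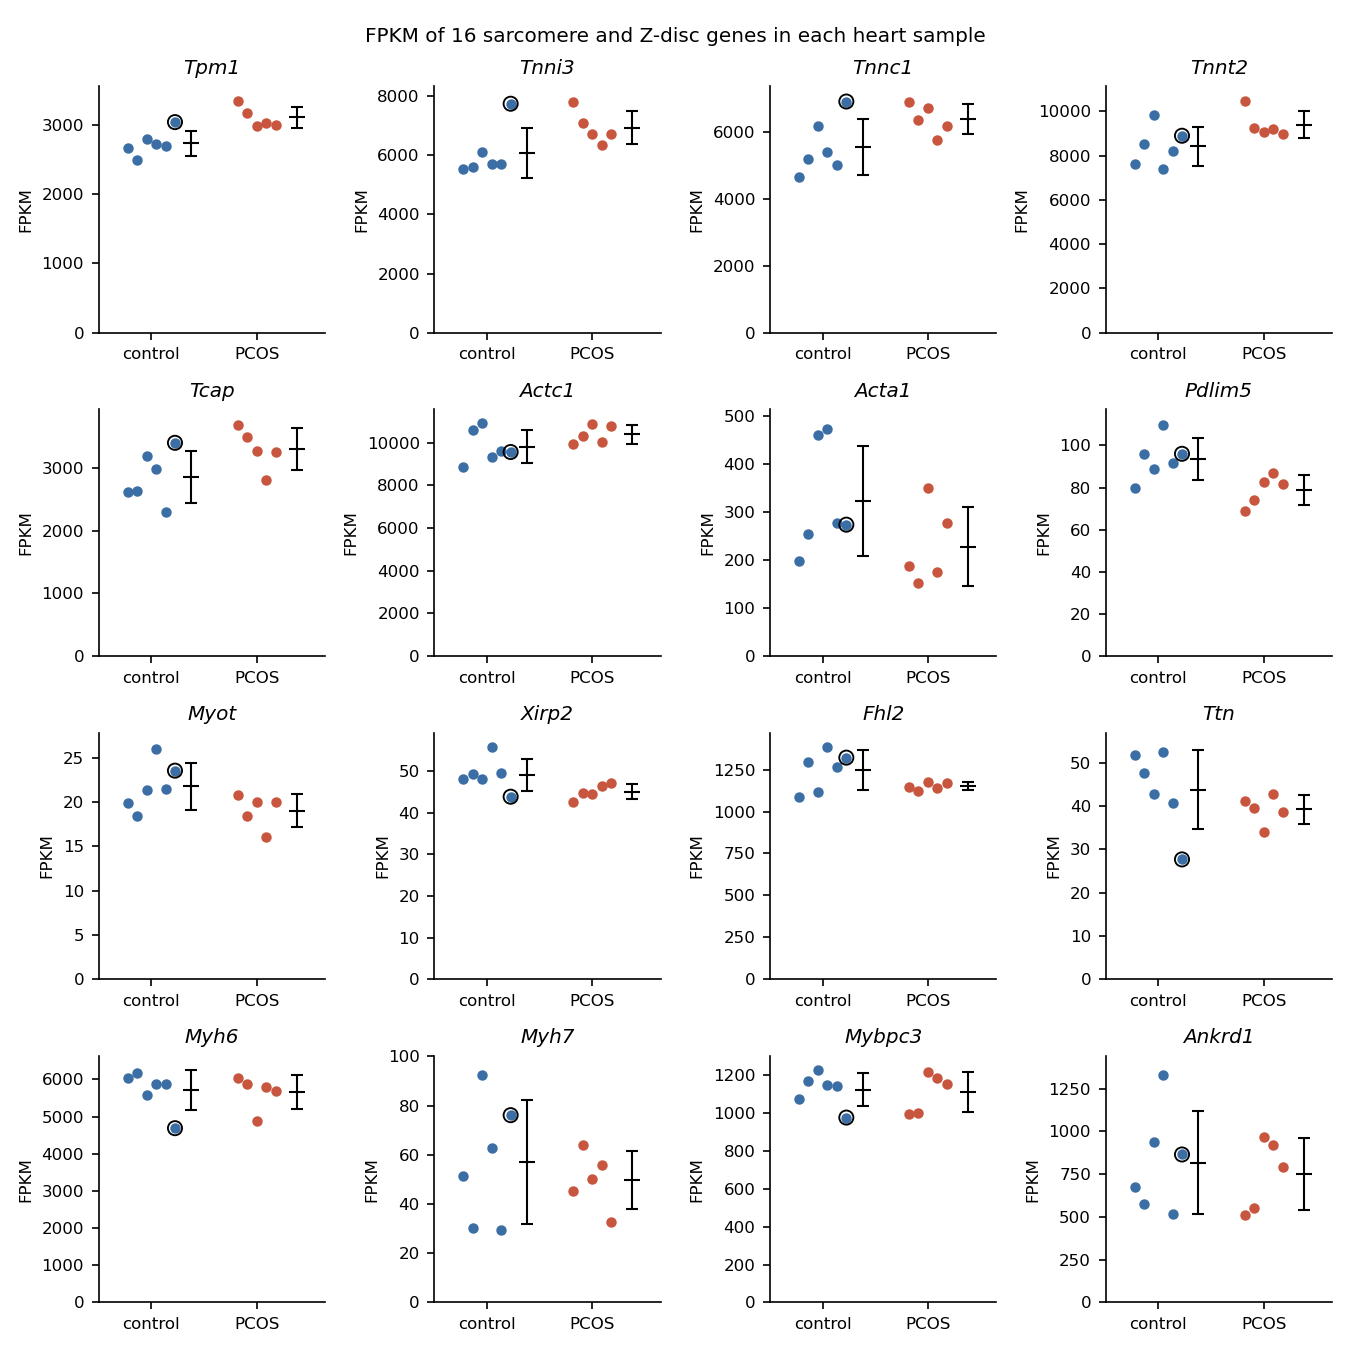
FPKM (vertical axis, from 0) of 16 genes of the list in the 6 control and 5 PCOS samples; each point is a sample, the bar beside a group is its mean ± SD, and the ringed point is control replicate 6. For Tpm1, 5 of 6 controls lie below every PCOS sample, and for Pdlim5, 5 of 6 lie above.

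Thick filament and M-band transcripts were close in the 2 groups. Of 8 tested genes, 2 had a difference above 0 and 6 below, with a median of -0.03 on the log2 scale, and 0 were called. Myh6 (chromosome 14, 54941921 to 54968017) alone took between 2.94% and 3.87% of a library's reads. It ran in controls from 4686 FPKM over a median of 5870 to 6169 FPKM, and in PCOS it stood at 6049, 5862, 4873, 5794 and 5677 FPKM. Control replicate 6 and PCOS replicate 3 were low, and the other 9 samples lay between 5580 and 6169 FPKM. The group means of 5704 ± 536.8 FPKM (SD, n = 6) and 5651 ± 455.3 FPKM (SD, n = 5) differed by -0.01 on the log2 scale (SE 0.08, 95% interval -0.18 to 0.16, adjusted p = 0.977).

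Myh7 (chromosome 14, 54970684 to 54994626), the neighbour of Myh6, was the most variable gene of the list among controls, with a coefficient of variation (CV, SD over mean) of 44.1%. It ran in controls from 29.4 FPKM over a median of 57.2 to 92.3 FPKM, and in PCOS it stood at 45.3, 64.1, 50.3, 55.8 and 32.8 FPKM. The PCOS samples lay within the control range throughout. The log2 difference was -0.11 (SE 0.28, 95% interval -0.71 to 0.50, adjusted p = 0.932), and 0.00 without control replicate 6. Controls 2 and 5 were the lowest Myh7 samples, and without both the difference was -0.50 (adjusted p = 0.9997), or -0.46 (adjusted p = 0.466) without control 6 as well. The 2 myosin genes are close copies, and because Myh6 took far more reads, a small misassignment of its reads would weigh on Myh7.

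Myh7b, a slow-type myosin heavy chain gene, was at 15.4 ± 4.57 FPKM (SD, n = 6) in the control group and 18.2 ± 6.31 FPKM (SD, n = 5) in the PCOS group (a log2 difference of 0.20, SE 0.23, adjusted p = 0.836). It was 0.04 without PCOS replicate 1, 0.40 without PCOS replicate 3, 0.32 without control replicate 1, 0.12 without control replicate 2, 0.03 without controls 2 and 5 and -0.10 without controls 2, 5 and 6. Mybpc3, the myosin-binding protein that regulates how myosin heads engage actin, ran in controls from 976.9 FPKM over a median of 1146 to 1229 FPKM. In PCOS it stood at 997.4, 1001, 1218, 1189 and 1155 FPKM, a split between PCOS replicates 1 and 2 and the other 3. Its log2 difference was -0.02 (SE 0.08, fold 0.989, adjusted p = 0.964). Myl3, the ventricular essential light chain, had means of 7826 and 8044 FPKM (log2 difference 0.04, SE 0.06). Mylk3, the cardiac kinase of the regulatory light chain, had a log2 difference of -0.15 (SE 0.13), with control replicate 6 at 163.4 FPKM and the other controls from 228.8 to 257.1 FPKM. Myom1 and Myom2, the myomesins that cross-link thick filaments at the M-band, had log2 differences of -0.09 (SE 0.09) and -0.05 (SE 0.11).

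At the Z-disc, 4 of 13 tested genes had a difference above 0 and 9 below, with a median of -0.09, and 0 were called. Ttn (chromosome 2, 76703980 to 76982557), the molecular spring, ran in controls from 27.6 FPKM over a median of 45.1 to 52.4 FPKM, and in PCOS it stood at 41.2, 39.5, 34.0, 42.9 and 38.5 FPKM. The lowest value of all was control replicate 6, and every PCOS sample lay below the control median. The log2 difference was -0.13 (SE 0.14, fold 0.914, adjusted p = 0.827), and -0.25 (adjusted p = 0.141) without control replicate 6. Without control replicate 1, control replicate 4 or PCOS replicate 3 it was -0.08, -0.07 and -0.08. Tcap, which encodes telethonin, the cap that joins 2 titin ends in the Z-disc, ran in controls from 2297 FPKM over a median of 2811 to 3406 FPKM and in PCOS stood at 3686, 3507, 3272, 2809 and 3264 FPKM. Only PCOS replicate 4 lay below the control median, but the groups overlapped. The log2 difference of Tcap was 0.22 (SE 0.10, fold 1.16, adjusted p = 0.738).

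Pdlim5 (chromosome 3, 142239585 to 142395719), a PDZ and LIM domain scaffold that brings protein kinases to the Z-disc, was the lower gene with the smallest unadjusted p. In controls it ran from 79.6 FPKM over a median of 93.8 to 109.6 FPKM, and in PCOS it stood at 68.8, 74.2, 82.8, 86.7 and 81.9 FPKM. Control replicate 1 was the only control among the PCOS samples, and the other 5 lay above all of them. The means were 93.6 ± 9.91 FPKM (SD, n = 6) and 78.9 ± 7.25 FPKM (SD, n = 5), a log2 difference of -0.24 (SE 0.08, fold 0.845, adjusted p = 0.738). Without control replicate 6 it was -0.23 with an adjusted p of 0.164.

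Myot and Fhl2 complete the 5 lower genes of smallest unadjusted p together with Pdlim5, Acta1 and Xirp2, although that of Fhl2 was 0.129 and that of Flnc, next in order, 0.134 (limma). Myot, which encodes myotilin, a partner of alpha-actinin and filamin, ran in controls from 18.4 FPKM over a median of 21.4 to 26.01 FPKM and in PCOS stood at 20.74, 18.37, 19.95, 16.02 and 20.02 FPKM. All 5 PCOS samples lay below the control median (log2 difference -0.18, SE 0.09, adjusted p = 0.738). Fhl2, a LIM protein that binds titin and shuttles to the nucleus, ran in controls from 1089 FPKM over a median of 1282 to 1386 FPKM. The PCOS samples stood at 1146, 1120, 1178, 1142 and 1173 FPKM, within a narrow band that the controls spanned on both sides, with 4 above and 2 below (log2 difference -0.11, SE 0.07, adjusted p = 0.753).

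The stretch-responsive Ankrd1, a titin-binding repressor that rises in loaded hearts, varied as much within groups as between them. It ran in controls from 514.9 FPKM over a median of 768.8 to 1332 FPKM, and in PCOS it stood at 513.3, 550.2, 969.0, 921.3 and 793.1 FPKM. The log2 difference was -0.09 (SE 0.24, fold 0.936, adjusted p = 0.929), and -0.35 without controls 2 and 5 (adjusted p = 0.9997). Actn2, the alpha-actinin that cross-links actin in the Z-disc, was the steadiest gene of the list among controls, at 856.8 ± 40.2 FPKM (CV 4.69%) against 885.1 ± 18.5 FPKM in PCOS. Csrp3, the muscle LIM protein, and Smpx, a small muscle protein, had log2 differences of 0.07 (SE 0.09) and 0.09 (SE 0.09). Ldb3 (the Z-disc scaffold cypher), Nexn (nexilin), Synpo2l and Flnc (the muscle filamin) had log2 differences of -0.06, -0.09, -0.04 and -0.17, with adjusted p-values of 0.753 or higher.

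Around the myofibril, 1 of 5 tested genes had a difference above 0 and 4 below, with a median of -0.05 and 0 called. Xirp2, an actin-binding protein of the intercalated disc, ran in controls from 43.9 FPKM over a median of 48.8 to 55.8 FPKM and in PCOS stood at 42.6, 44.8, 44.4, 46.4 and 47.1 FPKM. All controls but replicate 6 lay above every PCOS sample (log2 difference -0.12, SE 0.06, fold 0.919, adjusted p = 0.738). Its relative Xirp1 had a log2 difference of -0.04 (SE 0.13). Cmya5, which encodes myospryn, a desmin-binding anchor, was at 69.4 ± 16.6 FPKM (SD, n = 6) and 58.0 ± 5.75 FPKM (SD, n = 5), with a log2 difference of -0.22 (SE 0.16, adjusted p = 0.775). For Cmya5 the lowest sample was control replicate 6 at 41.5 FPKM, and without it the difference was -0.36 (adjusted p = 0.107). Des, the intermediate filament that links Z-discs, and Cryab, the small heat shock protein that protects it, had log2 differences of -0.05 (SE 0.06) and 0.13 (SE 0.09).

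Both ubiquitin ligases of the list had a lower mean in PCOS, without passing the test. Trim63 (chromosome 4, 134315120 to 134329629) encodes MuRF1, which ubiquitinates thick filament proteins, and Fbxo32 (chromosome 15, 58175879 to 58214892) encodes atrogin-1, an F-box protein that rises in muscle wasting. Trim63 ran in controls from 118.5 FPKM over a median of 154.7 to 195.7 FPKM, and in PCOS it stood at 147.0, 115.7, 147.3, 161.3 and 150.9 FPKM. Its log2 difference was -0.11 (SE 0.12, fold 0.927, adjusted p = 0.828), and -0.03 without PCOS replicate 2. Fbxo32 ran in controls from 18.4 FPKM over a median of 30.3 to 36.7 FPKM, and in PCOS it stood at 26.6, 17.1, 28.3, 28.4 and 28.3 FPKM. All controls but replicate 6 lay above every PCOS sample, and the log2 difference was -0.21 (SE 0.17, fold 0.867, adjusted p = 0.801). Without control replicate 6 it was -0.33 (adjusted p = 0.186), without PCOS replicate 2 it was -0.07 (adjusted p = 0.966), and without controls 2 and 5 it was -0.06.

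Across samples the 2 ligases varied together, which was 1 of 2 relations tested. Over the 11 samples Pearson's r of log2(FPKM + 1) was 0.93 (permutation p = 0.00024, adjusted over the 2 relations 0.00048) and Spearman's rho 0.82 (permutation p = 0.0034, adjusted 0.0069). Without control replicate 5 and PCOS replicate 2, the samples farthest from the median of Trim63, r was 0.90 (exact permutation p = 0.0090, adjusted 0.018) and rho 0.67 (exact permutation p = 0.059, adjusted 0.12). Within the 6 controls r was 0.91 (exact permutation p = 0.0097, adjusted 0.019), and no correlation was computed over the 5 PCOS samples alone. PCOS replicate 2 and control replicate 6 were lowest for both genes, and control replicates 2 and 5 were highest. The remaining samples lay between 145.6 and 161.3 FPKM for Trim63 and between 26.6 and 32.0 FPKM for Fbxo32. None of the fits given here left out all of the extreme samples together, so whether the relation holds among the remaining samples was not tested. Those same controls 2 and 5 had the lowest Apoe levels of all samples (6.04 and 8.29 FPKM, against 98.8 to 486.3 FPKM in the other controls and 274.3 to 336.7 FPKM in PCOS), and what part this plays was not tested. Leaving out controls 2 and 5 took the Trim63 difference from -0.11 to 0.01, and leaving out control 6 as well gave an r of 0.89 over 8 samples (exact permutation p = 0.051).

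**Figure D3:**
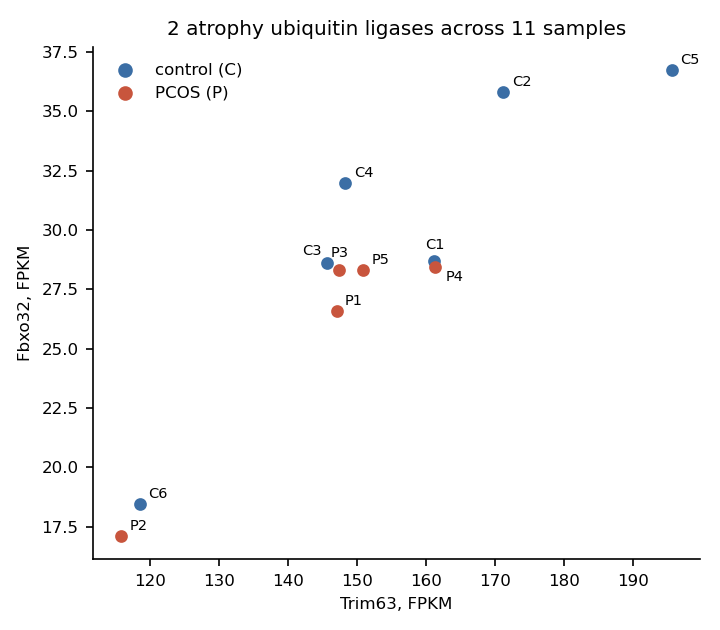
FPKM of Fbxo32 (vertical axis) against FPKM of Trim63 (horizontal axis) in the 11 samples, labelled C for control and P for PCOS with the replicate number; the axes do not start at 0. PCOS replicate 2 and control replicate 6 lie lowest on both axes, and control replicates 2 and 5 highest.

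Isoform and paralogue ratios, taken within each sample and therefore free of its depth, did not differ between the groups at an adjusted p under 0.05 over the 5 ratios tested (exact two-sided permutation of 462 arrangements, whose smallest p is 0.0022). The beta myosin transcript Myh7 was at about 1% of Myh6 in both groups. In controls the ratio ran from 0.488% to 1.654%, with a mean of 1.03% ± 0.519 (SD, n = 6), and in PCOS it stood at 0.748%, 1.09%, 1.03%, 0.963% and 0.577%. The PCOS samples lay within the control range, and the log2 difference of the ratio was -0.10 (SE 0.38, 95% interval -0.96 to 0.77, exact permutation p = 0.823, adjusted p = 0.823). Its direction turned without control replicate 6 (0.069), without control replicate 3 (0.075) and without PCOS replicate 5 (0.048). Without controls 2 and 5, which had the lowest ratios of all samples, it was -0.54 (exact permutation, adjusted p = 0.248), and without controls 2, 5 and 6 it was -0.41 (adjusted p = 0.402).

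Skeletal actin Acta1 was at 3.28% ± 1.12 (SD, n = 6) of cardiac actin Actc1 in controls and 2.17% ± 0.708 (SD, n = 5) in PCOS. The control samples stood at 2.23%, 2.41%, 4.22%, 5.07%, 2.89% and 2.86%, and the PCOS samples at 1.88%, 1.47%, 3.21%, 1.73% and 2.57%. Of the PCOS samples, 3 lay below every control, and control replicates 3 and 4 lay above every PCOS sample. The log2 difference of the ratio was -0.59 (SE 0.28, 95% interval -1.22 to 0.05, exact permutation p = 0.071, adjusted p = 0.179).

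The ratio of Tnni1 to Tnni3 was 0.0044% in controls and 0.0021% in PCOS (log2 difference -0.73, SE 0.34, exact permutation p = 0.071, adjusted p = 0.179), and rests on the few Tnni1 reads given above. In control replicate 4, Tnni1 had 1 read; without that sample the difference was -0.96 and the adjusted p 0.040. With a pseudocount of 1 in place of 0.1 the difference was -0.34 (exact permutation, adjusted p = 0.097). Myom2 was at 171.7% ± 21.1 (SD, n = 6) of Myom1 in controls and 175.0% ± 12.4 (SD, n = 5) in PCOS (log2 difference 0.03, exact permutation p = 0.723, adjusted p = 0.823). Without control replicate 6 that difference was 0.005. Lmod3 was at 15.4% ± 1.95 (SD, n = 6) of Lmod2 in controls and 16.7% ± 0.797 (SD, n = 5) in PCOS (log2 difference 0.13, exact permutation p = 0.167, adjusted p = 0.278). Myh7 and Acta1, which often rise together in loaded hearts, were only weakly related across the 11 samples (r = 0.22, permutation p = 0.515, adjusted 0.515; rho = 0.05, permutation p = 0.904, adjusted 0.904). Without control replicates 3 and 5, r was -0.01.

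**Figure D4:**
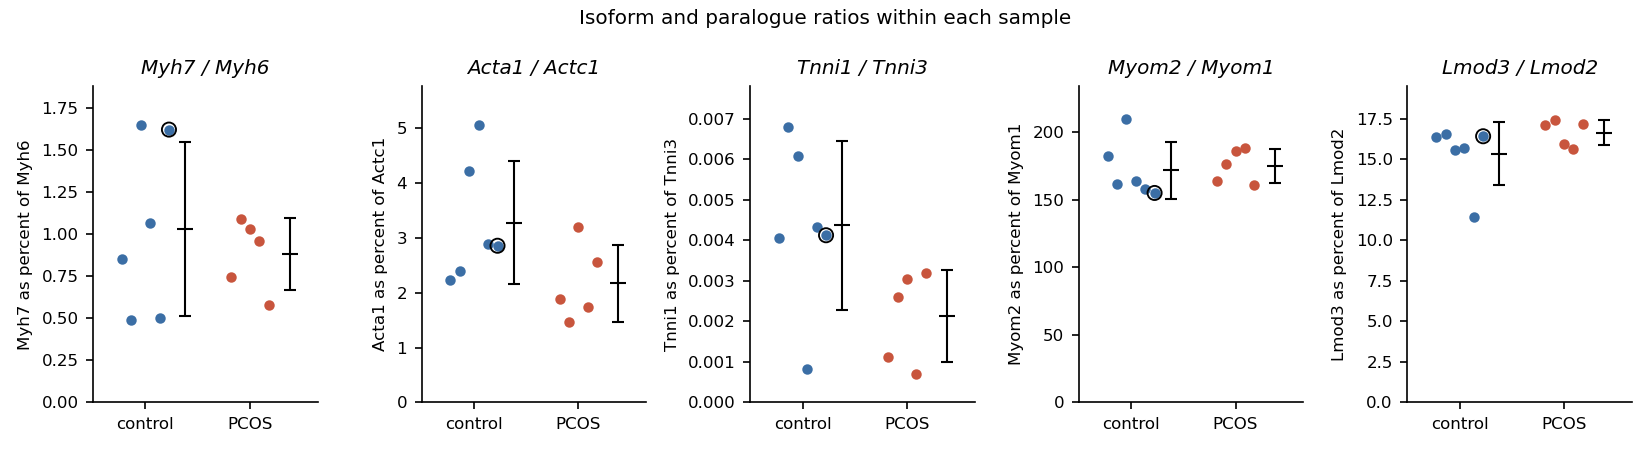
FPKM ratios, in percent (vertical axes, from 0), of 5 pairs of isoforms or paralogues in each control and PCOS sample; points are samples, bars are mean ± SD, and the ring marks control replicate 6. The Acta1 to Actc1 ratio runs from 2.23% to 5.07% in controls and from 1.47% to 3.21% in PCOS.

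The sign of the differences followed the length of the gene models, in the list and in the whole table. The length is the one implied by the FPKM values, and its Spearman rho with the difference was -0.54 over the 38 genes and -0.37 over the 10891 rows, as descriptions, since the genes share the same libraries. Below 1000 bases all 4 genes (Csrp3, Myl3, Tcap and Tnnc1) had a difference above 0, with a median of 0.14 against 0.11 for the 622 rows of that length. From 5000 bases upward 14 of 15 were below 0, the exception being Myh7b, with a median of -0.09 against -0.05 for 3002 rows. In between, the 10 genes from 1000 to under 2000 bases split 5 to 5 and the 9 from 2000 to under 5000 bases split 3 above to 6 below 0. Tpm1 (4934 bases), Acta1 (1571 bases), Pdlim5 (7177 bases) and Myh7b (8314 bases) were among the genes that stood away from the medians of their lengths.

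The libraries themselves differed in this respect. The median deviation of rows under 1000 bases minus that of rows of 5000 bases and over was highest in control replicate 6 (0.40 on the log2 scale) and lowest in control replicate 1 (-0.35). The other controls lay between -0.27 and -0.02 and the PCOS libraries between -0.11 and 0.23. With the length trend of each library removed, an alternative added after the values were seen, rho was 0.02 over all rows and -0.25 over the list. The differences of Tnnc1, Tnni3, Tcap and Tnnt2 were then 0.10, 0.11, 0.12 and 0.09, those of Ttn and Cmya5 -0.05 and -0.16, and those of Tpm1, Pdlim5 and Acta1 0.21, -0.20 and -0.56. At an unadjusted p under 0.05 that fit held 6 of 38 genes (15.8%), against 6.43% of all rows. Tpm1, Tnnc1 and Tnni3 were the higher ones (3.1% of rows), and Acta1, Myot and Fhl2 the lower ones (3.32% of rows). No gene of the list was called in that fit, and its smallest adjusted p in the list was 0.729 (limma).

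**Figure D5:**
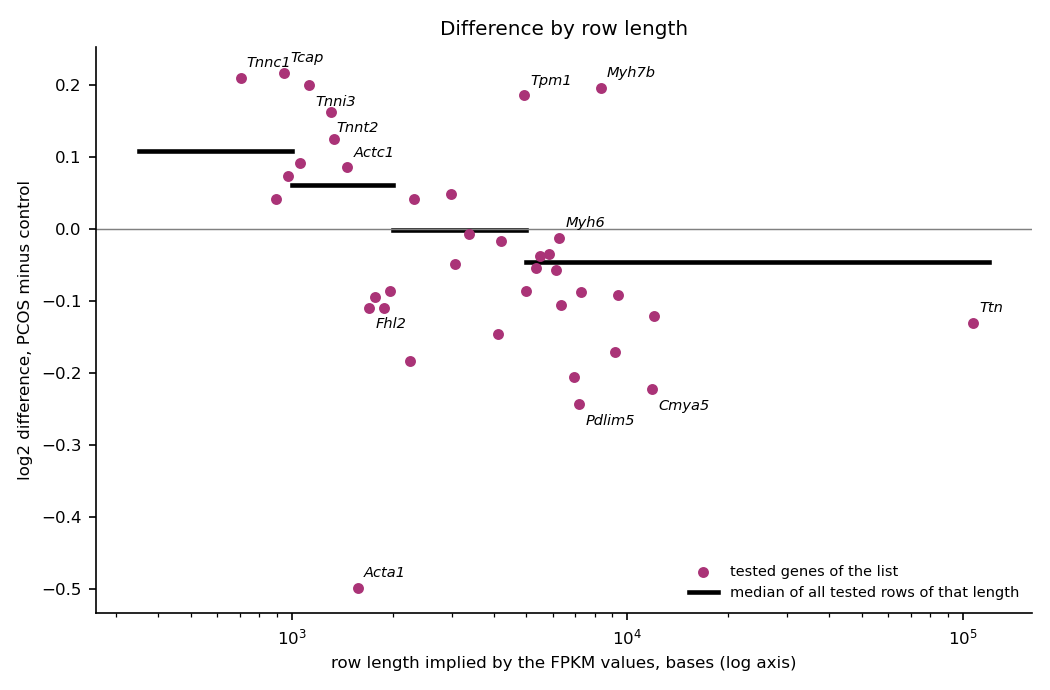
Log2 difference (PCOS minus control, vertical axis) against the row length in bases (horizontal log axis) for the 38 tested genes, with black bars for the median of all tested rows in 4 length ranges. The bars fall from 0.11 under 1000 bases to -0.05 at 5000 bases and over. Tpm1, Acta1, Pdlim5 and Myh7b are among the genes that stand away from them.

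The spread within groups differed widely between genes. The median CV over the 38 genes was 13.8% in controls and 8.27% in PCOS. In controls 7 genes had a CV of at least 20%: Ttn, Fbxo32, Cmya5, Myh7b, Acta1, Ankrd1 and Myh7. Control replicate 6 was the lowest sample for 13 of 38 genes, and control replicate 4 the highest for 12. Together the listed genes took 12.6% to 13.5% of a control library's reads and 13.11% to 13.97% of a PCOS library's.

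Other genes of the same machinery, taken from general knowledge, gave a similar picture, with 0 called in either direction in each of 4 lists. Of 32 other sarcomere isoforms 14 could be tested, of which 7 had a difference above 0 and 7 below (median 0.01). Tmod4, a skeletal tropomodulin, was at 7.79 ± 0.820 FPKM (SD, n = 6) and 9.21 ± 0.953 FPKM (SD, n = 5), with a log2 difference of 0.21 (SE 0.08, adjusted p = 0.738), and Tpm3, slow tropomyosin, had one of -0.13 (SE 0.11, adjusted p = 0.802). Of 31 tested genes of the Z-disc and of the costamere, which ties Z-discs to the cell membrane, 6 had a difference above 0 and 25 below (median -0.09). The adhesion receptor Itgb1 had a log2 difference of -0.21 (SE 0.08) and its muscle partner Itgb1bp2 one of 0.16 (SE 0.07), each with an adjusted p of 0.738. Of 31 tested genes of myofibril assembly and protein quality control, 12 were above 0 and 19 below (median -0.05). The small heat shock protein Hspb1 had a log2 difference of 0.27 (SE 0.11) and the autophagy receptor Nbr1 one of -0.19 (SE 0.08), each with an adjusted p of 0.738. Of 17 tested cardiac transcription factors of sarcomere genes, 3 were above 0 and 14 below (median -0.06), with Hopx at 0.16 (SE 0.08, adjusted p = 0.738) and Nkx2-5 at 0.09 (SE 0.05, adjusted p = 0.741). Of all tested rows, 50.6% were above 0. Without control replicate 6 the medians of the 4 lists, in this order, were 0.029, -0.136, -0.056 and -0.104, with 0 called in each.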

How the data were processed

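Expression was measured by sequencing in 11 heart samples of female mice (6 control, 5 PCOS). RNA was isolated with a mirVana kit and sequencing libraries came from a TruSeq kit for stranded mRNA, per the labels' protocols. Tools named in the submitters' processing notes are HISAT2 2.2.1, HTSeq 0.13.5, Trimmomatic 0.38, FastQC 0.11.9, DESeq2 1.18.1 and R 3.4.1, with build mm10; the settings and the counted strand are not given in the sources used here. The authors deposited FPKM per gene model and sample, used here as given. FPKM is relative to the library total, so a few abundant transcripts can shift the others.

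A RefSeq table of GRCm38.p6 gave symbols to 87.2% of the rows: 13175 by versioned accession and 5903 by another version, with 2800 unmatched. Whole reads and row lengths were recovered from the steps of the FPKM values. Every one of the 15939 rows with values above 0 in 3 or more samples came out as whole reads, within 0.05, in each sample, and the recovery was tested on simulated data.

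Groups were compared with limma 3.58.1 under R 4.3.3 (lmFit, eBayes with a trend), on log2(FPKM + 1) of the 10891 rows whose mean FPKM was 1 or more, with Benjamini-Hochberg adjustment over all of them; fold changes are on this scale, which understates those of low genes. Ratios used log2 of FPKM + 0.1 and exact permutation tests. Correlations used 100000 permutations, or all of them under 10 samples (scipy 1.17.1). Named in full were the 5 genes above 0 and the 5 below 0 of smallest unadjusted p, and Myh6, Myh7, Actc1, Acta1, Tnni3, Tnni1, Ttn, Mybpc3, Ankrd1, Trim63 and Fbxo32; of each further list, the 2 genes of smallest p. Alternatives covered the pseudocount, the filter, scaling, the replicate block, sample weights, samples left out and, added after seeing the data, voom on the recovered reads, removal of the length trend, and leaving out controls 2 and 5, or 2, 5 and 6. The genes, lists and tests were chosen with earlier results of these data known. Whether samples are separate mice is not in the labels; p-values therefore measure only the spread between these samples, which may be technical.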

Additional observations from a re-analysis of the deposited data

Results flagged for a closer look

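Among 88 groups of samples examined (38 tested genes, Tnni1 and 5 ratios, each in controls and in PCOS), 7 had 1 sample far from the others by Dixon's criterion, where chance flags about 5%, and 2 of the 7 were control replicate 6. Their causes were not tested. In control replicate 6, Mylk3 was at 163.4 FPKM, with the other controls from 228.8 to 257.1 FPKM, and Tnni3 at 7740 FPKM, with the others from 5527 to 6119 FPKM. In control replicate 4, Des was at 965.0 FPKM, with the others from 801.1 to 853.2 FPKM. In PCOS replicate 1, Tnnt2 was at 10463 FPKM, with the others from 9000 to 9232 FPKM. In PCOS replicate 4, Nexn was at 118.6 FPKM, with the others from 94.6 to 100.1 FPKM. In PCOS replicate 2, Fbxo32 was at 17.1 FPKM, with the others from 26.6 to 28.4 FPKM. In control replicate 5, Lmod3 was at 11.5% of Lmod2, with the others from 15.6% to 16.6%.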

How the results depend on the processing

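No gene of the list was called in any of 22 alternatives, where the smallest adjusted p was 0.083. The count of genes at an unadjusted p under 0.05, 4 of 38 in the main analysis, was 2 with median-ratio scaling (6.81% of all rows), 7 with quantile normalization (7.29%), 14 with sample weights (18.9%), 15 with the replicate number as a block (1964 of 10891 rows) and 7 without controls 2, 5 and 6 (10.7%), against 6.68% of rows in the main analysis. It was 6 with the length trend removed (6.43% of all rows), and ran from 2 to 15 with single samples left out. The count of genes with a difference above 0, 13 of 38 in the main analysis, ran from 10 to 19 over the alternatives. It was 10 with quantile normalization, 19 without controls 2 and 5 and 12 without controls 2, 5 and 6. The median difference of the list ran from -0.1 with quantile normalization to -0.01 without controls 2 and 5. Same-numbered samples did not deviate together (r from -0.12 to 0.25 over 5 pairs), so the numbers were not taken as pairing. Over all rows, 15 were called in the main analysis, 5 with a minimum mean of 5 FPKM, where fewer rows were tested, 25 with the block, 25 with sample weights, 32 without control replicate 6 and 26 without controls 2, 5 and 6. The other alternatives called 10 to 18. Number 6 occurs only among controls, so the block fit repeated the differences of the fit without control replicate 6. That of Ttn was -0.253 and that of Tnni3 0.273 in both. Sample weights gave control replicate 6 the lowest weight of all samples (0.237). The block, the sample weights and the fit without that sample are therefore not separate checks. The cause of the larger counts, in the list and in the table, was not tested.

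Of 38 genes, 23 kept the direction of their difference in every alternative, and the 15 others, whose differences lay within 0.20 of 0, had the other direction in at least 1. Quantile normalization gave -0.035 for Actc1, -0.022 for Csrp3 and -0.023 for Myl3. Sample weights gave 0.012 for Ankrd1, -0.001 for Lmod3 and 0.034 for Myh7. Removing the length trend gave -0.023 for Csrp3, 0.004 for Mybpc3, 0.029 for Myh6, -0.06 for Myl3 and 0.002 for Xirp1. Without controls 2 and 5, values were 0.007 for Lmod2, 0.007 for Mybpc3, 0.03 for Myh6, 0.045 for Tmod1, 0.011 for Trim63 and 0.091 for Xirp1, and without controls 2, 5 and 6, -0.098 for Myh7b. With single samples left out, differences ran from -0.067 to 0.041 for Myh6, -0.045 to 0.018 for Tmod1, -0.056 to 0.022 for Mybpc3, -0.269 to 0.055 for Myh7, -0.212 to 0.062 for Ankrd1, -0.089 to 0.026 for Synpo2l, -0.116 to 0.048 for Xirp1 and -0.137 to 0.008 for Myom2.

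Among the ratios, the log2 difference of Myh7 to Myh6 ran from -0.277 to 0.075 with single samples left out and that of Tnni1 to Tnni3 from -0.96 to -0.58, with an adjusted p of 0.040 without control replicate 4, and was -0.338 with a pseudocount of 1. Without controls 2 and 5 that of Myh7 to Myh6 was -0.54. Myom2 to Myom1 gave -0.016 without controls 2 and 5 and -0.079 without controls 2, 5 and 6. The r of Myh7 with Acta1 ran from -0.067 to 0.372 with single samples left out, and that of Trim63 with Fbxo32 from 0.90 to 0.96, and was 0.89 without controls 2, 5 and 6.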
